A study of Mus musculus with 7 samples.

Results

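The clustered protocadherins are adhesion receptors of the cell surface whose genes lie in tandem arrays, named alpha, beta and gamma, on chromosome 18 of the mouse. They were taken as all genes with a symbol formed of Pcdha, Pcdhb or Pcdhg and the number or letter of a cluster member, which gave 58 of the 49315 genes in the count tables, 14 of the alpha, 22 of the beta and 22 of the gamma cluster. RNA had been sequenced from primary mouse oligodendroglia of 2 genotypes, 4 libraries of wildtype cells (Klf13-wt, the controls) and 3 of cells without a functional Klf13 gene (Klf13-ko, the knockouts), to learn what the loss of the zinc finger transcription factor KLF13 changes in differentiating oligodendrocytes. All cultures came from brain tissue of newborn mice of both sexes, in which oligodendrocyte progenitor cells (OPCs) were shaken off mixed glial cultures, depleted of microglia and kept for 6 days in SATO medium with thyroid hormones. The knockouts came from mice in which Klf13 is deleted in the germ line and thus in every cell type that the cultures still held.

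Each clustered protocadherin binds to the identical isoform on an opposing membrane, and cells that display the same set of isoforms recognize each other as self. In neurons every cell switches on its own small choice of variable alpha, beta and gamma isoforms, so that sister branches of the same cell avoid each other, whereas the C-type isoforms at the end of the alpha and gamma clusters are used more uniformly. The choice is made at the promoters, each of which stands before a separate variable exon, and depends on looping by CTCF and cohesin, on antisense transcription and on DNA methylation. Beta genes consist of an unshared exon, but every variable exon of the alpha or gamma cluster is spliced to the same constant exons of its cluster, which encode the shared cytoplasmic part.

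The 3 clusters occupied 912 kb of GRCm38 on the plus strand. Alpha genes lay between 36930184 and 37187661, beta genes between 37264938 and 37524479, and gamma genes between 37661793 and 37841873. Because reads in the constant exons belong to all genes of a cluster, counts of unique hits on alpha and gamma genes rest on the variable exons, and the beta genes were therefore considered first. Of the 22 beta genes, 19 shared no exonic base with another gene. Exceptions were Pcdhb21 and Pcdhb22, which overlap by 455 bases, and Pcdhb12, of whose exonic bases only 36.5% were free of the antisense gene Gm37446. In the gamma cluster the variable exon of Pcdhga10 was completely covered by the antisense gene Gm26672 and other genes, and in the alpha cluster only 7% of the exonic bases of Pcdha4 were unshared. Values of these genes are therefore uncertain, as are those of the gene ENSMUSG00000102206, of which 16.8% was unshared. It carries the symbol Pcdha11, as does ENSMUSG00000007440, which begins where RefSeq places Pcdha10, and both are given here with their identifiers. Of the exonic bases of Pcdhgc3, 33.1% were unshared, and 1559 lay over the antisense gene BC037039.

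Libraries held 24507471 to 59596479 counts on genes, of which 20333 to 54793, or 0.0688% to 0.0919%, fell on the clustered protocadherins. Counts are given after TMM normalization, scaled to the mean library, and 3 counts in a library then correspond to 2.06 to 5.42 normalized counts. Klf13 itself had 10920, 11770, 12000 and 10670 normalized counts in control libraries and 802, 876 and 961 in the knockouts, so that the targeted gene matched the labels in all 7 libraries. The cells expressed oligodendroglial genes, with Pdgfra at 26440 to 29610 and Mbp on average at 448300 in controls and 130200 in knockouts, but they were not pure. Control replicates 3 and 4 stood apart by summed fibroblast and mural cell markers of 82370 and 65400 normalized counts, against 8981 to 24660 in the other 5 libraries, and control replicate 3 also by summed microglia markers of 122000, against 28070 to 58160. For the clustered protocadherins and the other gene lists, counts without both of these libraries are given beside those with all libraries where they differ.

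Where clustered protocadherins passed the test, they were higher in the knockout. Of the 57 members with enough counts, 17 rose and 0 fell by the quasi-likelihood test of edgeR with an adjusted p no higher than 0.05. Among all 18352 genes tested, 11.6% rose and 12.2% fell. The direction of change was upward in 52 of the 57 members, with a median log2 fold change of 0.28, against -0.0037 over all tested genes. In 28 members every knockout library lay above every control library, which held for 18.3% of all tested genes, and in 1 member, Pcdhb5, every knockout library lay below, as in 18% of all genes. When a log2 fold change of at least 1 was also required, 9 members rose and 0 fell, with 3.97% and 3.08% of all genes meeting this rule. All 9 belonged to the alpha cluster. Without knockout replicate 2, without control replicate 3, or without control replicates 3 and 4, the number was 5, 6 and 5. A fit with the replicate number as an added term (the replicate block), in which control replicate 4 has no partner, gave 6. At any fold, 4.57%, 9.54%, 6.26% and 9.49% of all genes rose in these fits, and their shares at this fold were not computed.

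The increase is given here for each cluster, and no test compared the clusters, whose genes come from the same libraries. In the alpha cluster 9 of 14 genes rose (64.3%), in the beta cluster 5 of 21 (23.8%) and in the gamma cluster 3 of 22 (13.6%), the last of these a share close to the 11.6% of all genes. Median log2 fold changes were 1.18, 0.26 and 0.19. Pcdhb1, the remaining beta gene, was close to absent with 0 to 6 counts per library and could not be tested. Without knockout replicate 2, 5 alpha, 4 beta and 1 gamma gene still rose, and without knockout replicate 3 the numbers were 7, 3 and 1. With control replicates 3 and 4 both left out, 6 alpha, 2 beta and 1 gamma gene rose. Of all genes, 4.57%, 8.27% and 6.26% rose in these fits.

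**Figure D1:**
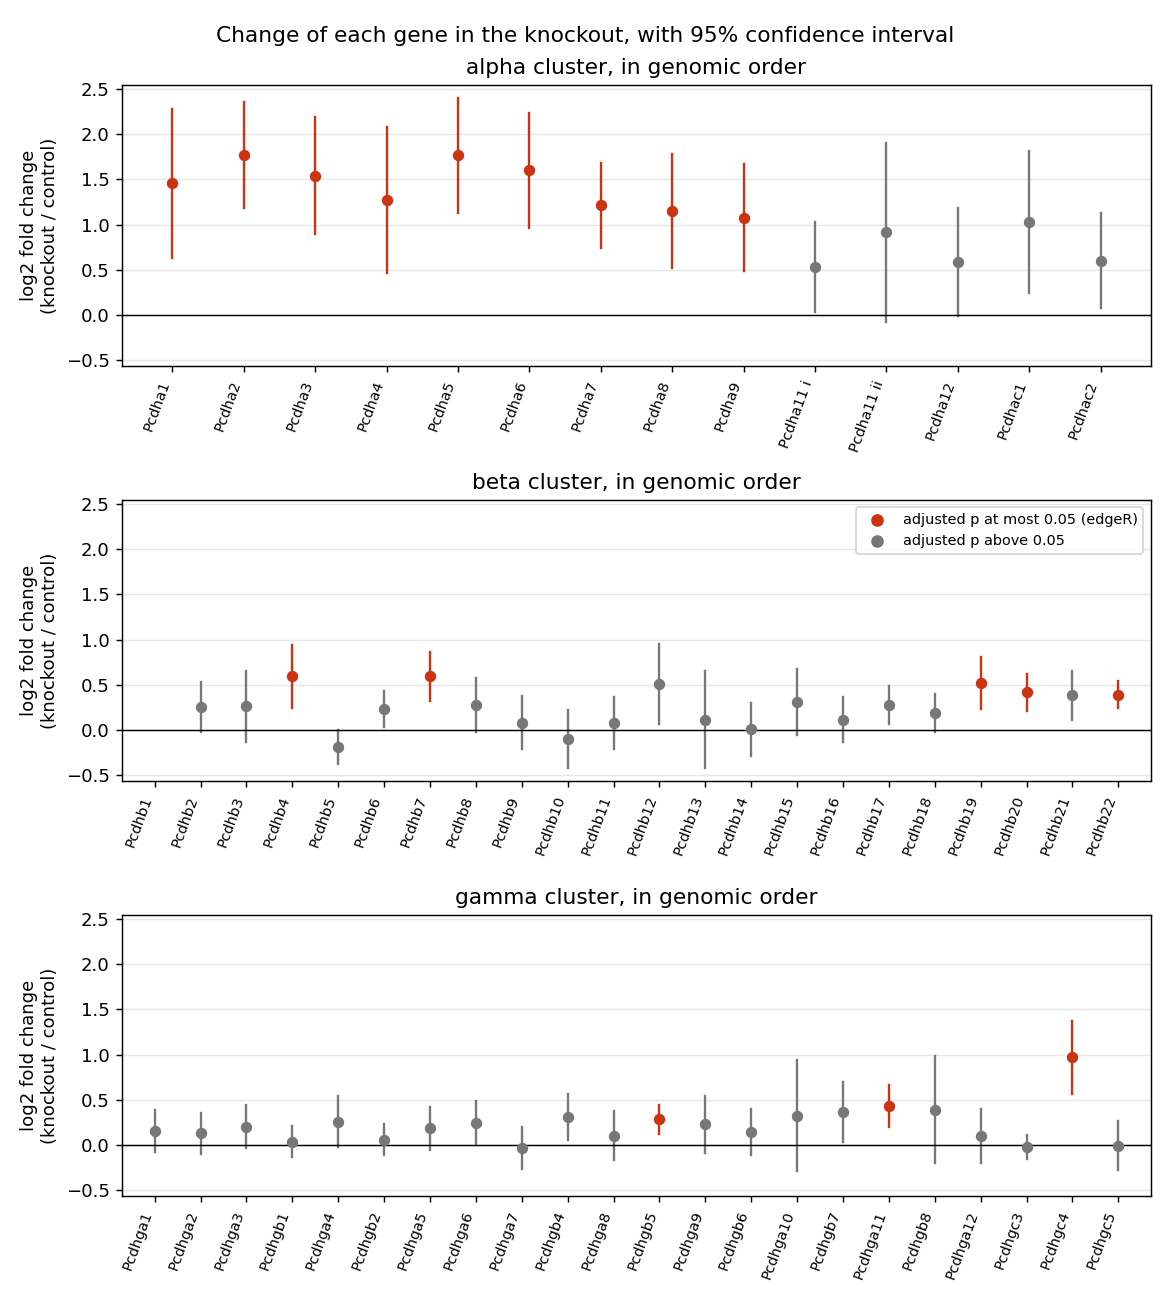
Change of each clustered protocadherin gene in the knockout. The y axis gives the log2 fold change of knockout over control with its 95% confidence interval, genes stand in genomic order along the x axis, and red points mark adjusted p-values no higher than 0.05 by edgeR (Pcdha11 i is ENSMUSG00000007440, Pcdha11 ii is ENSMUSG00000102206, and Pcdhb1 was not tested). The first 9 alpha genes are all red and lie above 1, whereas beta and gamma genes, except for Pcdhgc4 at 0.97, lie at 0.59 or below.

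Summed over the genes of a cluster, alpha transcripts amounted to 864, 1096, 815 and 688 normalized counts in the controls and to 1610, 2095 and 1573 in the knockouts. The groups did not overlap, and means were 866 ± 170.5 (SD, n = 4) and 1759 ± 291 (SD, n = 3), a ratio of 2.03. Beta transcripts came to 10800, 10000, 9275 and 10600 in controls and 11500, 11850 and 12130 in knockouts, a ratio of 1.16 without overlap. For the gamma cluster the sums were 23400, 21470, 20540 and 23010 in controls against 23600, 23720 and 23670 in knockouts. Here the ratio was 1.07, and the lowest knockout library exceeded the highest control library by less than the spread among controls (SD 1334). No p-value is given for these sums, since their genes were selected as a family.

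**Figure D2:**
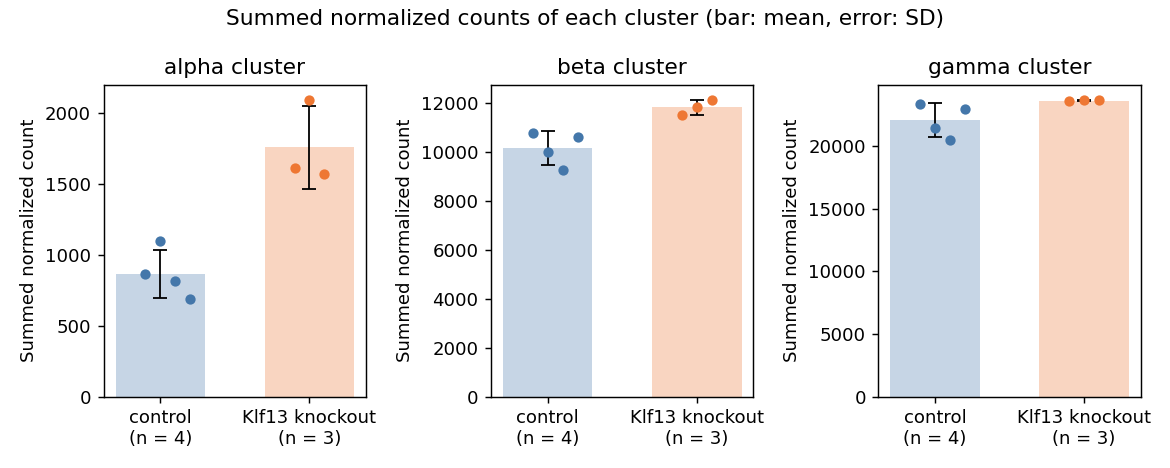
Summed normalized counts of the alpha, beta and gamma clusters. Points are libraries, bars are means of 4 control and 3 knockout libraries, and error bars are SD. The alpha sum is 2.03 times as high in the knockouts, against 1.16 times for beta and 1.07 times for gamma.

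Only a small share of all clustered protocadherin transcripts was of the alpha type, and it was larger in every knockout library than in any control. It made up 2.46%, 3.37%, 2.66% and 2.01% of the 3 clusters in controls and 4.39%, 5.56% and 4.21% in knockouts. The beta part was 30.3% to 30.9% in controls and 31.3% to 32.5% in knockouts, and the gamma part 65.9% to 67.1% and 63% to 64.3%. These shares rest on unshared exons and do not correct for their length.

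Levels of different genes were compared as CPM (counts scaled to a common library total) per kilobase of unshared exon, averaged over the 7 libraries, for the 56 members with at least 500 such bases. Pcdhgc3, a C-type gamma gene known to bind Axin1 and to inhibit Wnt signalling, was by far the highest at 137.4. Next, over both genotypes, were Pcdhga11 at 10.5, Pcdhga3 at 10.4, Pcdhga7 at 8.21 and Pcdhgb6 at 7.29. Pcdhga11 and Pcdhga3 could not be separated, with 9.18 ± 0.88 and 9.74 ± 1.23 in controls (SD, n = 4). The gamma cluster as a whole had the highest levels, with a median of 4.6 over 21 genes and a range from 1.20 for Pcdhgb8 to 137.4.

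Over both genotypes beta genes reached 5.28 for Pcdhb5, followed by Pcdhb9 at 4.87 and Pcdhb10 at 4.77, and their median was 2.33. In the controls Pcdhb5 (5.58 ± 0.20, SD, n = 4) was above Pcdhb9 (4.76 ± 0.25), whereas Pcdhb9 and Pcdhb10 (4.91 ± 0.70) lay within the spread of each other. In the knockouts Pcdhb20 (5.54 ± 0.069, SD, n = 3) was the highest, followed by Pcdhb9 (5.02 ± 0.89), Pcdhb17 (5.001 ± 0.23) and Pcdhb5 (4.88 ± 0.41), and these neighbours lay within the spread of Pcdhb9. Alpha genes had the lowest median, 0.89 over 13 genes. Over both genotypes their leading gene was the C-type Pcdhac2 at 2.19, whose product is required for the orderly spacing of serotonergic axons, followed by Pcdha12 at 1.58 and Pcdha9 at 1.48. Pcdhac2 led in either genotype, while Pcdha12 and Pcdha9 stood at 1.299 ± 0.36 and 1.003 ± 0.31 in controls (SD, n = 4) and at 1.95 ± 0.50 and 2.11 ± 0.32 in knockouts (SD, n = 3), within the spread of each other. At the low end were Pcdha1 and the other C-type alpha gene, Pcdhac1, which could not be separated in controls (0.100 ± 0.034 and 0.103 ± 0.044, SD, n = 4). With the full exon length of the files in place of the unshared bases, Pcdhgc3 stood at 45.5 and Pcdhac2 at 1.13. Pcdhgc3 was then still the highest, but Pcdhga3 at 5.71 and Pcdhb5 at 5.28 came next, Pcdhga11 dropped to 2.78, and the medians of the gamma and beta clusters were 2.503 and 2.33.

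**Figure D3:**
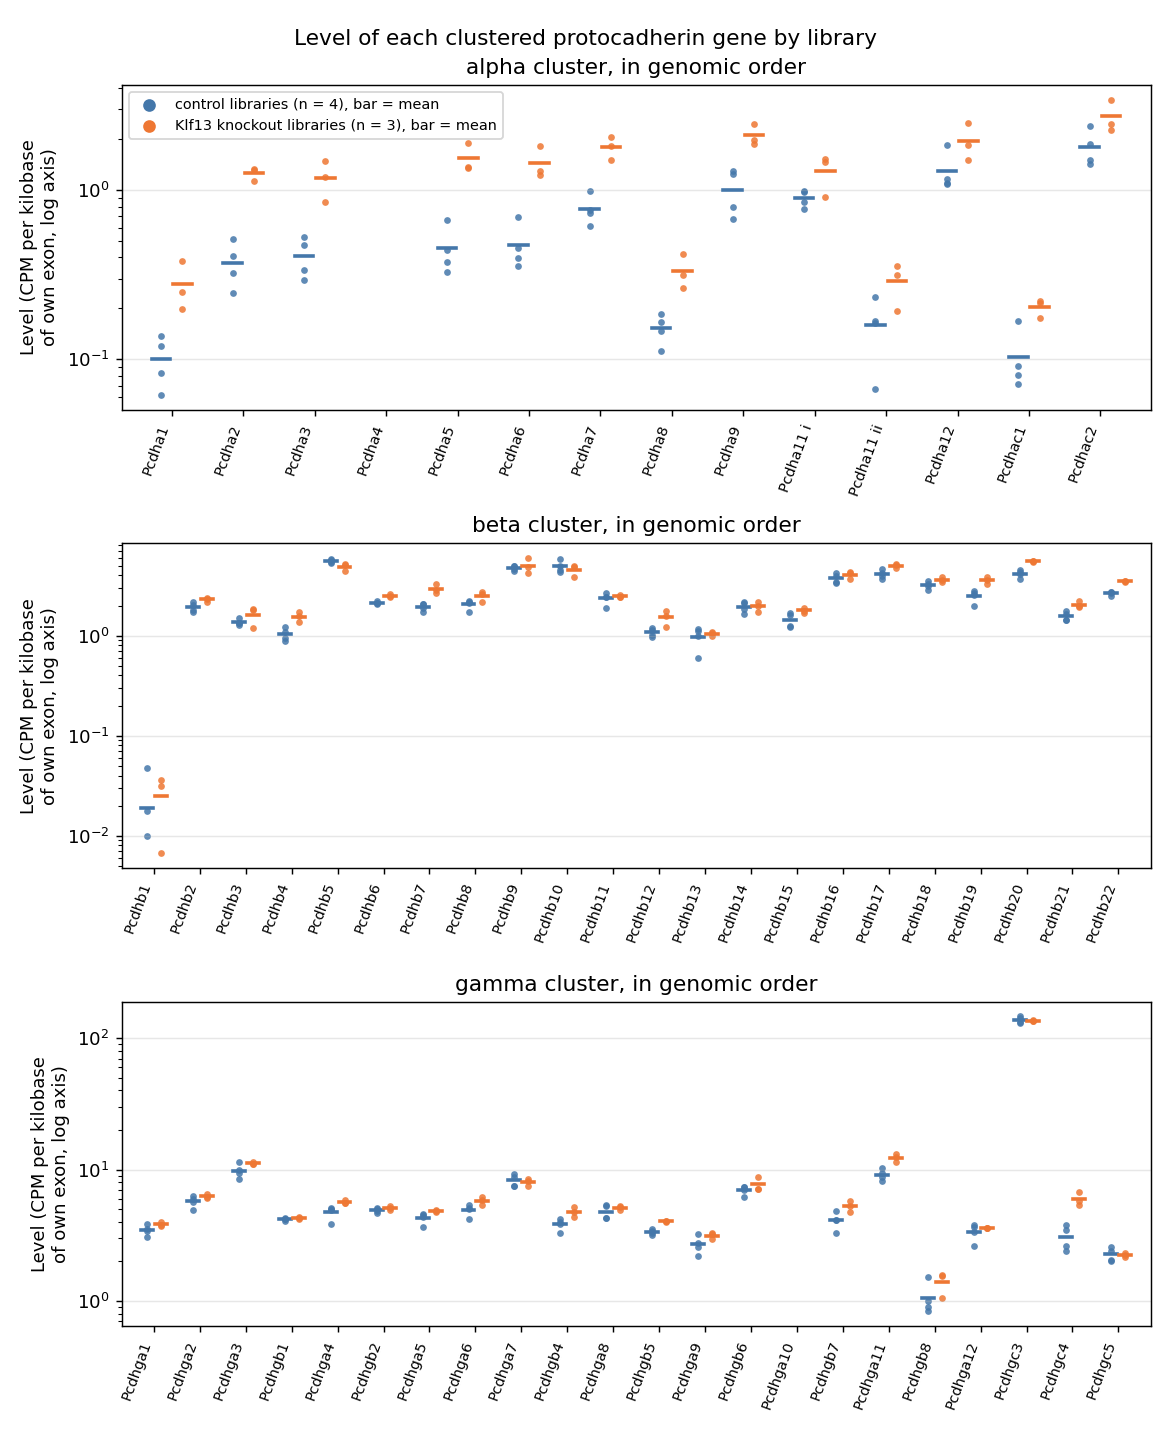
Level of each clustered protocadherin gene in every library, in CPM per kilobase of unshared exon on a log axis, with genes in genomic order. Blue points are the 4 control libraries, orange points the 3 knockout libraries, and bars are means. Pcdhgc3 stands at 137.4 on average, most other beta and gamma genes lie between 1 and 11, and the alpha cluster has the lowest median (Pcdha4 and Pcdhga10 have too few unshared bases, and a count of 0 for Pcdhb1 in a control library is not drawn).

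Among the beta genes, Pcdhb7 and Pcdhb4 showed the largest log2 fold changes and could not be separated (0.594 and 0.592, and 0.539 and 0.556 with the replicate block). Pcdhb7 had 321, 316, 291.5 and 266 normalized counts in controls and 439, 504 and 408 in knockouts, so that all knockout libraries were above the controls. On the log2 scale it rose by 0.59, with a standard error (SE) of 0.12 and an adjusted p = 0.0116 by edgeR. Pcdhb22 showed the smallest p in the cluster and little variation, with 739, 728, 737 and 680.5 in controls and 960.5, 951 and 923 in knockouts. It rose by 0.39 on the log2 scale (SE 0.066, adjusted p = 0.00691), and this call held under each of 17 alternatives. Pcdhb20, with 710, 672, 576 and 639 in controls against 877, 856.5 and 863 in knockouts, rose by 0.41 (SE 0.087, adjusted p = 0.0143).

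Pcdhb19, the most strongly counted beta gene in knockouts but not in controls, where Pcdhb5, Pcdhb16 and Pcdhb17 were above it, had 878, 791, 623 and 829 normalized counts in controls and 1123, 1039 and 1197 in knockouts. The groups were apart although control replicate 3 was low, and Pcdhb19 rose by 0.52 (SE 0.12, adjusted p = 0.0222 by edgeR). Pcdhb4 had the largest adjusted p of the 5 genes that rose, at 177, 198, 145 and 153.5 normalized counts in controls and 226, 279 and 255 in knockouts. Its log2 fold change of 0.59 had an adjusted p of 0.0284 by edgeR, which became 0.0569 with the replicate number as a block. Pcdhb19 missed the threshold without knockout replicate 1 or 3, and Pcdhb4 without control replicate 3 or 4 or knockout replicate 2 or 3. With control replicates 3 and 4 both left out, Pcdhb4, Pcdhb7 and Pcdhb20 missed it.

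Pcdhb21 lay just outside the threshold with a log2 fold change of 0.38 and an adjusted p of 0.0519. The other strongly counted beta genes, Pcdhb17 and Pcdhb16, had log2 fold changes of 0.28 (adjusted p = 0.0645) and 0.11 (adjusted p = 0.508 by edgeR). Pcdhb17 went from 948, 802, 761 and 871.5 to 971, 1037 and 1064, again without overlap between groups. Of the 5 genes that rose, Pcdhb19, Pcdhb20 and Pcdhb22 were among the last 4 of the cluster, next to the gamma genes. Over the whole cluster the position of a gene and its log2 fold change had a Spearman rho of 0.21 (21 genes of the same libraries, given as a description).

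Pcdhb5 was the beta gene with the lowest log2 fold change. Controls had 830, 855, 904 and 879 normalized counts and knockouts 684, 799 and 790, so that the highest knockout library was below the lowest control. The 95% confidence interval of its log2 fold change, -0.19, ran from -0.38 to -0.0039, and with an adjusted p of 0.13 by edgeR it did not pass. Pcdhb10, at -0.10 (95% confidence interval -0.43 to 0.22), was the only other tested beta gene with a negative value.

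In the alpha cluster, the largest changes were those of Pcdha5 and Pcdha2, genes of the variable type whose products need another protocadherin as a carrier to reach the cell surface. Pcdha5 had 45.9, 68.4, 38.9 and 33.7 normalized counts in controls and 140.8, 196.6 and 140.1 in knockouts. The lowest knockout library thus held more than any control library, and the log2 fold change was 1.77 (SE 0.27, adjusted p = 0.00498 by edgeR). Pcdha2 rose from 44.6, 56.3, 35.4 and 27.2 to 124.6, 145 and 147. Here too the groups were far apart, and the log2 fold change of 1.77 (SE 0.25) had the smallest adjusted p of all members, 0.0039. Pcdha7 had the third smallest p in this cluster. Its counts of 68.9, 92.5, 72 and 58 in controls and 171.5, 194.5 and 140.9 in knockouts gave a log2 fold change of 1.21 (SE 0.20, adjusted p = 0.00656).

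Pcdha6 had 37.8, 57.3, 29.7 and 32.8 normalized counts in controls and 101, 150.5 and 107 in knockouts, a log2 fold change of 1.60. Pcdha3 had 51.3, 57.3, 36.6 and 31.8 against 92.1, 162 and 129.5, a log2 fold change of 1.54. In both genes the groups were separate, with adjusted p-values of 0.00708 and 0.00874 by edgeR. Pcdha9, the most strongly counted gene of the variable type in knockouts (in controls Pcdha12 was level with it, at 111 against 109), rose from 135, 142, 86.9 and 74 to 217, 269.5 and 205, a log2 fold change of 1.08 (SE 0.26, adjusted p = 0.0226). It missed the threshold without knockout replicate 1 and without knockout replicate 2.

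The remaining alpha genes that rose, Pcdha1, Pcdha4 and Pcdha8, were low. They had 6.75 to 24.3 normalized counts in controls and 21.7 to 45.7 in knockouts, with log2 fold changes of 1.46, 1.27 and 1.15 and adjusted p-values of 0.0246, 0.0358 and 0.0219 by edgeR. With the replicate number as a block, Pcdha4 and Pcdha8 no longer passed (adjusted p = 0.12 and 0.10). All of them missed the threshold without knockout replicate 2, without knockout replicate 3, and with control replicates 3 and 4 both left out. Pcdha1 also missed it without control replicate 3, and Pcdha4 without any single library other than control replicate 1. With 5 to 16 counts in control libraries before normalization, Pcdha1 passed the filter on low counts only through the knockouts. Its call held without that filter. Calls of Pcdha2, Pcdha3, Pcdha5, Pcdha6 and Pcdha7 held under all 17 alternatives.

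The genes that rose were the first 9 of the alpha cluster in genomic order, from Pcdha1 to Pcdha9, and none of the 5 that follow passed with all libraries. Some alternatives did not keep this border. Pcdha12 and Pcdhac2 passed with the ribosomal covariate and without control replicate 2, Pcdhac1 by limma voom and without control replicate 1, and ENSMUSG00000007440 without knockout replicate 3. Position along the cluster and log2 fold change had a Spearman rho of -0.83 and a Pearson r of -0.84 over the 14 genes, which come from the same libraries and share constant exons. For the gamma cluster the Spearman rho was 0.20 over 22 genes. Among the later alpha genes, Pcdha12 had 93.2, 156.9, 99.4 and 94.5 normalized counts in controls and 157, 214 and 129.5 in knockouts. The groups overlapped at control replicate 2, and the log2 fold change of 0.59 had a 95% confidence interval of -0.011 to 1.19. ENSMUSG00000007440 (Pcdha11) had the lowest value of the cluster, 0.53 (95% confidence interval 0.036 to 1.03), with overlapping groups. Thus all 14 alpha genes had positive values, but Pcdha1, Pcdhac1 and ENSMUSG00000102206 passed the filter on low counts only through the knockout libraries. Whether the early and the late genes of the cluster differ in their change was not tested.

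C-type genes, which resemble each other more than their neighbours in the clusters, were not uniform in their values. Pcdhac2 had 200, 319, 249 and 189 normalized counts in controls and 329, 455 and 303 in knockouts. Control replicate 2 reached into the knockout range, and the log2 fold change of 0.60 (95% confidence interval 0.075 to 1.12) had an adjusted p of 0.0955 by edgeR. Pcdhac1 was at the limit of what the depth resolves, with 18.9, 9.05, 8 and 10.3 against 19.9, 24.7 and 24.4. Its groups lay side by side without overlap, and with a log2 fold change of 1.03 its adjusted p was 0.0647.

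Pcdhgc4, which is required for the survival of inhibitory interneurons, had 575, 526, 398 and 370 normalized counts in controls and 876, 1036 and 828 in knockouts. All knockout libraries lay well above the controls, and the mean rose from 467 ± 99 (SD, n = 4) to 913 ± 109 (SD, n = 3). Its log2 fold change of 0.97 (SE 0.17, adjusted p = 0.00839 by edgeR) was the largest of the beta and gamma clusters, and the call held under all 17 alternatives. Pcdhgc5, its neighbour, had 406, 490, 526 and 412 in controls and 469, 456 and 439.5 in knockouts. These ranges overlapped fully, with a log2 fold change of -0.011 and a 95% confidence interval from -0.28 to 0.26.

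Pcdhgc3 carried about as many counts as all other gamma genes combined. It had 11420, 10510, 10670 and 11750 normalized counts in controls and 10770, 10800 and 11030 in knockouts. Knockout libraries fell inside the control range, and the log2 fold change of -0.029 had a 95% confidence interval of -0.16 to 0.10 (adjusted p = 0.757 by edgeR). Of all gamma counts, Pcdhgc3 made up 48.8% to 52% in the controls and 45.5% to 46.6% in the knockouts. The share of Pcdhgc4 was 1.61% to 2.46% in the controls and 3.5% to 4.37% in the knockouts. Without Pcdhgc3, the gamma sum was 11020 ± 878 (SD, n = 4) in controls and 12790 ± 139 (SD, n = 3) in knockouts, a ratio of 1.16.

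**Figure D4:**
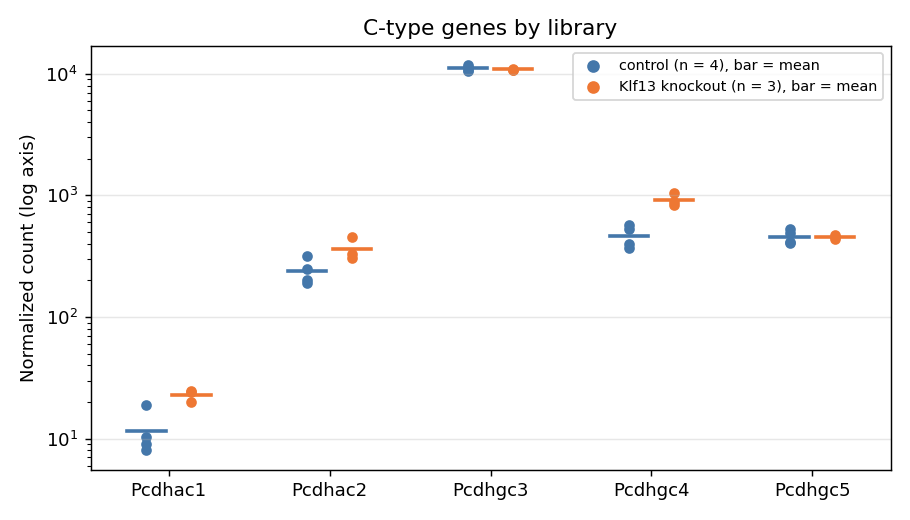
C-type protocadherins by library. The y axis gives normalized counts on a log axis, points are libraries (4 controls in blue, 3 knockouts in orange) and bars are means. Pcdhgc4 rises from 467 to 913, while Pcdhgc3 (11090 and 10870) and Pcdhgc5 (458 and 455) have overlapping groups.

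Apart from Pcdhgc4, 2 gamma genes of the variable type rose. Pcdhga11 had 566, 454.5, 482 and 523 normalized counts in controls and 634, 720 and 689 in knockouts, with a log2 fold change of 0.43 (SE 0.10, adjusted p = 0.0217 by edgeR). Pcdhgb5 had 713, 670, 641 and 688 against 816, 826 and 830, with a log2 fold change of 0.28 (SE 0.069, adjusted p = 0.0248). In both genes the groups were separate. However, with the replicate number as a block the adjusted p-values were 0.0617 and 0.0705, so that only Pcdhgc4 of the gamma cluster passed, and both calls were also lost without knockout replicate 2, without knockout replicate 3 and without both control replicates 3 and 4. Pcdhgb5 was lost as well without control replicate 2 or knockout replicate 1, and without a filter on low counts.

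The other strongly counted gamma genes did not pass. Pcdhga3 had 1298, 1069, 961 and 1127 normalized counts in controls and 1314, 1256 and 1265 in knockouts, with overlap and a log2 fold change of 0.20 (95% confidence interval -0.038 to 0.44). Pcdhga7 had the lowest value of the cluster, -0.039 (95% confidence interval -0.27 to 0.19). Gamma genes of the A type, 12 in number, showed a median change of 0.19 and 1 gene that rose, and those of the B type, 7 in number, a median of 0.28 with 1 that rose.

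Evenness of isoform use was compared next. The effective number of isoforms, the exponential of the Shannon entropy of their counts, was 8.96, 8.91, 8.16 and 8.35 for the gamma cluster in controls and 9.8, 9.81 and 9.6 in knockouts. All knockout values were above the controls, but without Pcdhgc3 the ranges met, at 18.5 to 18.7 and 18.7 to 18.9. For the alpha cluster it was 10, 8.98, 8.89 and 9.27 against 10.3, 10.4 and 11.2, again higher in every knockout library. For the beta cluster the ranges overlapped, with 17.6 to 18 and 17.8 to 18.3. These numbers rest on counts not corrected for the length of the unshared exons, and they include the genes with uncertain values. They describe the pooled RNA of a culture and do not tell how many isoforms an individual cell expressed.

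In bulk RNA, more cells of a type and more RNA per cell cannot be told apart, and several cell types of the brain express clustered protocadherins. Of the neuron markers 10 of 14 rose and 0 fell, with a median log2 fold change of 1.53. For this and the following lists, the shares over all tested genes are the 11.6% that rose and the 12.2% that fell. With the replicate number as a block 9 rose and 2, Elavl3 and Nefl, fell, when 9.49% of all genes rose and 2042 fell. Without control replicate 3, knockout replicate 1 or knockout replicate 2 the number that rose was 6, 6 and 5, without control replicates 3 and 4 it was 7 (median 1.16), and without a filter on low counts it was 4. The share of all genes that rose was 9.54%, 6.35%, 4.57%, 6.26% and 4.51% in these fits. Elavl3 also fell without knockout replicate 2 and with the ribosomal share as a covariate. The summed normalized count of the neuron markers was 41310 to 60690 in controls and 81520 to 102500 in knockouts. Every neuron marker was detected, among them Map2 (log2 fold change 0.73, adjusted p = 0.00479 by edgeR) and Stmn2 (1.91, adjusted p = 0.0061), and Slc17a7 was too low to be tested. Slc17a6, one of the 10 that rose, passed the filter on low counts only through the knockouts. Elavl3, next to Map2 the most strongly counted in controls, had a log2 fold change of -0.46 (adjusted p = 0.0977, and 0.0241 with the block). Both within controls and within knockouts, the order of the libraries by the neuron sum (52960, 60690, 46950 and 41310 in controls, 84570, 102500 and 81520 in knockouts) was that of the alpha sum.

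Of the astrocyte markers, 8 of 12 rose and 0 fell, with a median of 0.65. With the replicate number as a block 7 rose and 1, S100b, fell, as with the ribosomal covariate, when 9.49% and 14.6% of all genes rose. Without knockout replicate 3 or 2 the number that rose was 5 and 2, when 8.27% and 4.57% of all genes rose. Their sum was 168300 to 187600 in controls and 242900 to 275900 in knockouts. Gfap, the highest of the list, had a log2 fold change of 0.66 (adjusted p = 0.024 by edgeR), Gja1 of 1.44 (adjusted p = 0.00224) and Slc1a3 of 1.03 (adjusted p = 0.0071). S100b, the next highest after Gfap in controls, stood at -0.54 (adjusted p = 0.0923, and 0.0204 with the block) and Fgfr3 at -0.22 (adjusted p = 0.545). The astrocyte sums, too, ordered the libraries within each genotype like the alpha sum. The knockout order was not particular to these lists. Sums of the OPC markers and of the nonclustered protocadherins, cadherins and partner genes described below had it too. Within controls, the sum of the chromatin regulators had the order of the alpha sum. What these orders rest on was not tested.

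Of the OPC markers 2 of 12 rose, a share close to that of all genes, and 0 fell (median 0.14), Vcan by 0.50 and Ptprz1 by 0.33. The call of Ptprz1 was lost with the block (adjusted p = 0.101), without control replicates 3 and 4, and without control replicate 2 or 4 or any single knockout library. Gpr17 and Olig1, the highest of this list in controls, stood at 0.26 (adjusted p = 0.0532) and -0.10 (adjusted p = 0.458 by edgeR). All 15 markers of mature oligodendrocytes fell under every alternative (median -2.69), with Mbp at -1.78 and Ermn at -3.57. Of the microglia markers none of 12 passed in any fit. Their median was -0.39, but 0.31 without control replicate 3.

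Of the fibroblast and mural markers 1 of 13 fell, Dcn, with a median of -1.66. By DESeq2 and without control replicate 2 the number was 8, and with the replicate block 5, while without control replicate 1, 3 or 4 or knockout replicate 1 or 2 it was 0. Of all genes, 1254 to 2673 fell in these fits, against 2246 in the main fit. Col1a1 and Fn1, the highest of them in controls, stood at -2.30 (adjusted p = 0.0565) and -1.66 (adjusted p = 0.057 by edgeR). Without control replicates 3 and 4 the median was -0.56 and 0 fell. Of the endothelial markers 1 of 5 fell, Cdh5, with a median of -0.67. Its call was lost without control replicate 1, 3 or 4 or knockout replicate 1 or 2, by limma voom, with upper quartile factors and without a filter on low counts. Without control replicates 3 and 4 together 0 fell and the median was 0.0085. The part that these cell types had in the protocadherin values was not tested.

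Protocadherins encoded outside the clusters went in both directions. Of 11 tested genes 2 rose and 3 fell, beside 11.6% and 12.2% of all genes, and the median log2 fold change was -0.084, with a range from -0.215 to 0.0125 under the alternatives. With the replicate block 4 fell, when 2042 of all 18352 tested genes fell. Pcdh17, the most strongly counted in controls, decreased from 20490 ± 1323 (SD, n = 4) to 9905 ± 397 (SD, n = 3), with a change of -1.05 on the log2 scale (adjusted p = 1.26e-04 by edgeR). Pcdh19, another homophilic receptor of neurons, had a log2 fold change of -1.29 (adjusted p = 0.00108), and Pcdh9 also fell. Pcdh8 and Pcdh15 rose by 1.19 and 0.73, but Pcdh8 missed the threshold without any single library other than control replicate 2 and without control replicates 3 and 4, and Pcdh10 stood at -0.034 (adjusted p = 0.848).

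Classical and type II cadherins, which bind through calcium and catenins, went in both directions. Beside the same shares of all genes, 3 of 15 tested genes rose and 6 fell (median -0.42, but 0.050 by DESeq2 and 0.060 without a filter on low counts, both of which tested more genes). The numbers were 1 and 5 without control replicate 3, 3 and 3 without control replicate 1, 3 and 4 without control replicate 4, 2 and 3 without knockout replicate 1, 1 and 2 without knockout replicate 2, and 1 and 3 without knockout replicate 3. With control replicates 3 and 4 both left out they were 3 and 5. Of all genes, 4.57% to 10% rose and 1254 to 2032 fell in these fits. Cdh2, the neural cadherin, was at 0.062 (adjusted p = 0.468 by edgeR), and Cdh20 and Cdh11 fell by 0.65 and 0.52 (the call of Cdh20 was lost without any single knockout library). Cdh12 rose from 4.1 to 24.4 normalized counts (log2 fold change 2.57, adjusted p = 0.00715 by edgeR). In controls it was near the floor, at 1.87 to 7.04 normalized counts. Cdh12 thus passed the filter on low counts only through the knockouts, and its call held without that filter.

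Of 23 chromatin regulators known to act on the clusters, 1 rose and 2 fell, with a median of 0.014. Of all genes 11.6% and 12.2% rose and fell, and the numbers depended on the libraries and the fit. None passed without control replicate 2, without knockout replicate 1, or without control replicates 3 and 4. In these fits 10.1%, 6.35% and 6.26% of all genes rose and 1903, 1254 and 1489 fell. By DESeq2 1 regulator rose and 4 fell, beside 10.8% of all genes that rose and 2673 that fell. With the ribosomal covariate 2 rose and 5 fell, beside 14.6% of all genes that rose and 2482 that fell. The DNA methyltransferase gene Dnmt3b, whose product methylates variable promoters in early development, rose from 95.9 ± 3.67 to 138 ± 11.8 normalized counts (log2 fold change 0.53, adjusted p = 0.0272 by edgeR). This call was lost with the replicate block (adjusted p = 0.0952) and without any single library other than control replicate 1. Dnmt3a, far more strongly counted at 17390 and 14200, fell by 0.29 (adjusted p = 0.0324), and the cohesin regulator Pds5a fell by 0.21. Dnmt3a missed the threshold without control replicate 2 or knockout replicate 1 or 3, and Pds5a without any single library other than knockout replicate 3. The cohesin subunit gene Rad21 was at -0.12 (adjusted p = 0.107), Ctcf at 0.014 (adjusted p = 0.937) and Smchd1, a silencer of the clusters, at -0.18 (adjusted p = 0.0536).

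Of 27 genes for cytoplasmic partners and proteolytic processing, 1 rose and 4 fell, with a median of -0.19, beside 11.6% and 12.2% of all genes. The gene that rose, Abi2, missed the threshold with the replicate block (adjusted p = 0.0572), with which 7 genes fell, and by DESeq2, with which 7 fell as well. It also missed it with RLE or upper quartile factors, without a filter on low counts, with the ribosomal covariate and without any single library other than control replicate 1. Without knockout replicate 1 or 2, 0 genes of the list rose and 2 fell, and without control replicates 3 and 4, 0 rose and 3 fell. Of all genes, 6.35%, 4.57% and 6.26% rose and 1254, 1317 and 1489 fell in these fits. With the block and by DESeq2, 2042 and 2673 of all genes fell. The kinase gene Rock1 fell by 0.50 (adjusted p = 0.0039), and Cyfip2, a subunit of the WAVE complex that binds protocadherin tails, fell by 0.31 (adjusted p = 0.00707 by edgeR), and both calls held under all 17 alternatives. Marcks, whose product binds the gamma constant domain, was at -0.013 (adjusted p = 0.949), and the tyrosine kinase gene Fyn at -0.13 (adjusted p = 0.313).

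**Figure D5:**
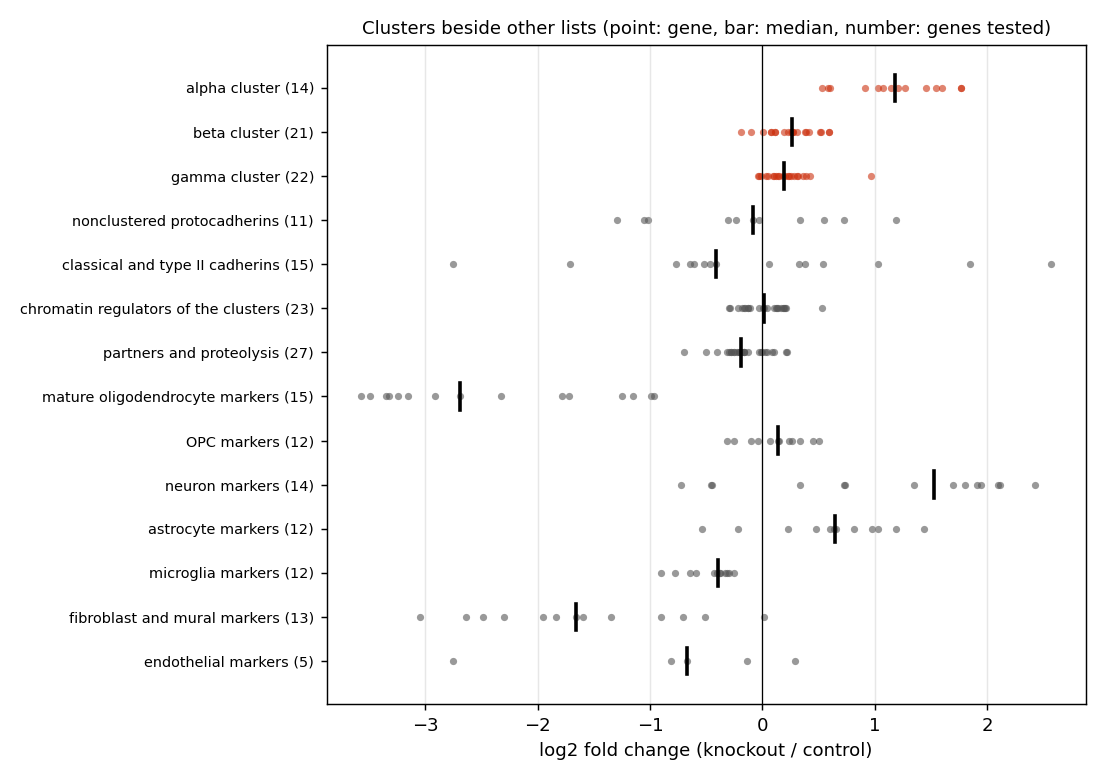
Log2 fold changes (x axis, knockout over control) of all tested genes in the protocadherin clusters (red) and in the other gene lists (grey). Each point is a gene, bars are medians and the number of tested genes stands in parentheses. The alpha cluster lies around 1.18 and the neuron markers around 1.53, while nonclustered protocadherins scatter to both sides of 0.

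Genes in and around the clusters were compared as well. Between the first alpha and the last gamma gene, or within 500 kb on either side, lay 65 other genes. Of these 37 were tested, 1 rose and 2 fell, with a median log2 fold change of -0.017, beside 11.6% and 12.2% of all genes. Inside the clusters lay 27 of them, of which 11 were tested and 0 passed by edgeR with all libraries, against 1 by DESeq2. By edgeR, BC037039 rose without control replicate 1, and Gm36858 rose and Taf7 fell without control replicate 3. Gm36858 passed the filter on low counts only through the knockouts. Of these 11, 9 had positive values (median 0.47), and reads of those that overlap members cannot be told apart from the members' own without strand. Before the alpha cluster 15 of 21 were tested (median -0.092), and behind the gamma cluster 11 of 17 (median -0.13). Hars2, which encodes the mitochondrial histidyl-tRNA synthetase and lies before the alpha cluster, rose from 904 ± 21.9 (SD, n = 4) to 1089 ± 62.1 (SD, n = 3) normalized counts, a log2 fold change of 0.27 (adjusted p = 0.0251 by edgeR). Behind the gamma cluster, 1700086O06Rik had a log2 fold change of -0.45 (adjusted p = 0.0286) and 2010320O07Rik of -0.73 (adjusted p = 0.0482). All of these calls were lost with the replicate block (adjusted p = 0.078, 0.0946 and 0.108 by edgeR) and without control replicates 3 and 4. The call of Hars2 was also lost without control replicate 2 or knockout replicate 2 or 3. That of 1700086O06Rik was lost without control replicate 1 or 4 or any single knockout library, and that of 2010320O07Rik without any single library.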

How the data were processed

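RNA-seq of 4 control and 3 knockout libraries was analysed, each labelled as a separate biological replicate. According to the study's methods and the submitters' processing notes, the authors trimmed reads with Trimmomatic 0.36, mapped them with STAR 2.5.2b to GRCm38 and counted unique hits within exons with featureCounts of Subread 1.5.2. The deposited values are whole-number counts per gene without normalization, and all per-sample columns were used. The annotation release and the strand setting are not given in the sources used here, so that sense and antisense reads of overlapping genes cannot be told apart. Symbols were found for 48970 of 49315 identifiers in a table of gene names. Unshared exonic bases were taken from the exon positions in the count tables.

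All genes were fitted in R 4.3.3 with edgeR 4.0.16 (filterByExpr by group, TMM, robust quasi-likelihood fit with genotype as the only term), and p-values were adjusted by Benjamini-Hochberg over the 18352 genes tested. A gene was said to rise or fall at an adjusted p of at most 0.05. The procedure was tested on simulated data. P-values are two-sided. The members and all gene lists were chosen with earlier results of these data known. Named members were, per cluster, the 3 with the highest mean counts, the 3 with the smallest p, the extremes of the log2 fold change and the C-type genes. Per list, they were taken from the 2 highest and the 2 with the smallest p, without the microglia markers, of which none passed, and around the clusters they were the 3 with the smallest p. Other members and list genes were named after their values were seen.

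Deviations from the group means correlated at 0.113, 0.463 and 0.168 between control and knockout libraries with the same replicate number, and at -0.529 to 0.197 between others (across genes, which are not independent). The numbers were therefore also fitted as a block. Number 4 occurs only among controls, so that control replicate 4 adds nothing to the genotype estimate of this fit, which rests on 3 pairs. Further alternatives were DESeq2 1.42.0, limma 3.58.1 (voom), other normalizations and filters, the share of ribosomal RNA genes (6.03% to 17.9% of counts) as a covariate, and libraries left out.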

Additional observations from a re-analysis of the deposited data

Results flagged for a closer look

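In each group of 4 control libraries it was asked whether the highest or lowest library was set apart by Dixon's test. Of the 62 gene and sum values tested, 3 were, and chance gives about 1 in 20. Pcdha12 had 156.9 normalized counts in control replicate 2, against 93.2 to 99.4 in the other controls. Pcdhb8 had 266.3 in control replicate 3, against 327 to 336, and Pcdhga4 had 267.5 in the same library, against 343 to 355.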

How the results depend on the processing

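No alternative gave a member that fell. Of 969 values of single members under 17 alternatives, 885 kept direction and side of the threshold, 39 lost and 13 gained a call, and 32 changed sign, none of these in a member that rose. With all libraries 17 of the 57 tested members rose, and leaving out 1 library gave 10 to 20 of the 57 (alpha 5 to 10, beta 3 to 7, gamma 1 to 3, and 5 to 11 at a log2 fold change of at least 1). Leaving out control replicates 3 and 4 together gave 9 (beta 2, gamma 1, and 5 at that fold), and the replicate block gave 12, with 1 in the gamma cluster, and changed no call of a member beyond the 5 named above. Of all genes, 4.57% to 10.1% rose with 1 library left out, 6.26% without control replicates 3 and 4, and 9.49% with the block. Fits with libraries left out have fewer samples, and other causes were not tested. Per kilobase, the exonic length of the files gave 45.49 for Pcdhgc3 and 1.128 for Pcdhac2 in place of 137.4 and 2.194.

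Sign changes concerned values close to 0. Without control replicates 3 and 4, log2 fold changes were 0.052 for Pcdhb10, -0.044 for Pcdhb11, -0.059 for Pcdhb13, -0.020 for Pcdhb14, -0.054 for Pcdhga12 and 0.016 for Pcdhgc5. DESeq2 gave -0.0067 for Pcdhb14, and the ribosomal covariate -0.11 for Pcdhb14 and 0.070 for Pcdhgc5. Total counts gave 0.0070 for Pcdhga7, 0.016 for Pcdhgc3 and 0.031 for Pcdhgc5, upper quartile factors 0.0080 for Pcdhgc3 and 0.032 for Pcdhgc5, and the block 0.026 for Pcdhga7 and 0.00046 for Pcdhgc3. With 1 library left out, values ran from -0.066 to 0.20 for Pcdhb9, from -0.16 to 0.018 for Pcdhb10, from -0.014 to 0.16 for Pcdhb11, from -0.065 to 0.23 for Pcdhb13, from -0.073 to 0.098 for Pcdhb14, from -0.083 to 0.042 for Pcdhga7, from -0.0043 to 0.17 for Pcdhga12, from -0.055 to 0.020 for Pcdhgc3 and from -0.049 to 0.059 for Pcdhgc5.

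Low counts limit Pcdha1, Pcdha4, Pcdha8, ENSMUSG00000102206, Pcdhac1 and Pcdhb1, and shared exons limit Pcdha4, ENSMUSG00000102206, Pcdhb12 and Pcdhga10. Groups of 4 and 3 libraries limit what small changes can be called, so that genes without a call are not shown to be equal.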
